A study of Mus musculus with 7 samples.

Results

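Of the 17920 genes in the deposited table of mouse spleen expression, 8 were taken by symbol as the glucocorticoid receptor and genes of its response: Nr3c1, Fkbp5, Tsc22d3, Sgk1, Klf9, Pdk4, Errfi1 and Hsd11b1. All 8 were found, each on 1 row. They were picked by name, with no threshold on a measured value but with earlier results of these data known. The same holds for the gene lists described below. RNA levels came from 7 spleens of C57BL/6 mice aged 8 weeks, all injected intraperitoneally with lipopolysaccharide (LPS, 20 mg/kg), a bacterial cell wall component that provokes systemic inflammation. Wild-type and GdX-deficient mice (GdX-/Y in the treatment protocol, GdX-/- in the design text) were compared, GdX being the protein encoded by the X-linked gene Ubl4a. Spleens were taken 90 min after the injection from 2 wild-type and 2 GdX-deficient mice, and 6 h after it from 2 wild-type mice and 1 GdX-deficient mouse. Every mouse had received LPS, so no value here can be set against a spleen without LPS, and corticosterone was not among the measurements used.

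The glucocorticoid receptor is a nuclear receptor that is held in the cytosol by the HSP90 chaperone complex. On binding corticosterone, the main glucocorticoid of mice, it moves to the nucleus, activates genes at glucocorticoid response elements and represses many inflammatory genes. LPS activates the hypothalamic-pituitary-adrenal axis, and glucocorticoids from the adrenal gland restrain the cytokine response and drive lymphocyte death in the spleen. Fkbp5 and Tsc22d3 are among the most widely induced targets of the receptor across cell types, while Sgk1, Klf9, Pdk4 and Errfi1 respond to glucocorticoids and to other signals too.

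Levels are given as FPKM (fragment numbers divided by transcript length and by the mapped total), as deposited, and differences as log2 fold changes of FPKM + 1 from limma, which understate the change of low genes and are printed ± their standard error (SE). A gene is called where the Benjamini-Hochberg adjusted p over all 11378 genes tested is under 0.05. All 8 members were in this set, which required a mean of at least 1 FPKM over the 7 libraries. The depth read from the steps of low FPKM values was similar between libraries, at an estimated 18500000 to 20600000 fragments. Ubl4a itself was listed at 4.03 and 5.69 FPKM in the GdX-deficient spleens of 90 min, where wild type had 5.62 and 7.5 FPKM, and at 10.56 FPKM in the one of 6 h, where wild type had 11.88 and 14.01 FPKM. Summed with the overlapping entry Gm44504, it lay between 5.04 and 11.22 FPKM in the GdX-deficient and between 21.02 and 62.98 FPKM in the wild-type libraries. Ubl4a alone thus differed little between the labelled genotypes, how reads were split between the 2 entries is not given in the sources used here, and the genotype is taken from the labels. Across 11180 genes with a known transcript length, longer transcripts had higher values in GdX-deficient than in wild-type spleen, with a Spearman's rho between length and log2 fold change of 0.427 at 90 min and 0.316 at 6 h. GdX-deficient spleen at 6 h was measured once, without a replicate: tests that use it assume that it varies like the groups of 2.

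The promoters of the members were searched for the letters of the glucocorticoid response element, to show the receptor's recognition sequence where the RefSeq windows hold it. The search covered the 250 bases before each start site in 15 windows of 7 members (GRCm38.p6), on both strands, and Nr3c1 was not included. The core ACANNNTGT was found in 2 windows, both of Sgk1, and in 5.84% of all 32851 mouse promoter windows of the same length. The hexamer AGAACA, which overlaps the core in a complete element, was found in 4 windows, 3 of Sgk1 and 1 of Tsc22d3, and in 16.1% of all windows. The complete palindrome, 2 hexamers on opposite strands with 3 bases between them, looked for after the other matches were seen, was present in 1 member window and in 3 of all windows (0.00913%). Sgk1 (chromosome 10, 21882184 to 21999903, plus strand; all gene positions here are RefSeq's on GRCm38.p6) has several start sites. The window chr10:21993640-21993889, before an internal start site, holds the palindrome, and chr10:21978422-21978671 holds the core alone. Neither overlaps an exon of Sgk1 in GENCODE M21. Both are printed 5′ to 3′ on the plus strand, with matches to the core and the hexamer in capitals:
Sgk1 window with the palindrome: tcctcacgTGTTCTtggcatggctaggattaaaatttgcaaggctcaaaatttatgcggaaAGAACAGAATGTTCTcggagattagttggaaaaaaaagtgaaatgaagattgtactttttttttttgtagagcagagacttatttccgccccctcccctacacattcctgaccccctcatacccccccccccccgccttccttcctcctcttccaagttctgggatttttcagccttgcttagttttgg
Sgk1 window with the core alone: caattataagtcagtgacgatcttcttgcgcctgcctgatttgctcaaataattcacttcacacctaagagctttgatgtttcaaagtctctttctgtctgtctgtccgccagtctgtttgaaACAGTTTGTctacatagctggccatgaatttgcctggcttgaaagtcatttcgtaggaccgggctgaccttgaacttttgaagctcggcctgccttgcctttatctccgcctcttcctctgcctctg
In the first window the core ACAGAATGT starts at position -186 from the start site, with a further hexamer match at -242. In the second, ACAGTTTGT starts at -127. None of 3 NF-kB motifs of 10 letters was found in a member window, and they occur in 0.14%, 0.0852% and 0.0852% of all windows. These matches are descriptions of letters and say nothing of binding in these spleens.

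Nr3c1 (Entrez gene 14815), the receptor itself, was higher in GdX-deficient than in wild-type libraries at each time, without overlap, but passed the test in no comparison unless a library was left out or the replicate number was added as a block. At 90 min its level was 14.53 and 28.44 FPKM in GdX-deficient spleen, and wild type had 13.25 and 13.67 FPKM. At 6 h the GdX-deficient library was at 23.16 FPKM and the wild-type libraries were at 8.18 and 11.83 FPKM. Replicate 1 of the GdX-deficient 90 min group lay close to wild type, and the distance came from replicate 2 and the 6 h library. The log2 fold change with time as a covariate, which sets 3 GdX-deficient against 4 wild-type libraries, was 0.80 ± 0.28 (limma adjusted p = 0.122). It was 0.56 ± 0.35 (limma adjusted p = 0.632) at 90 min and 1.15 ± 0.43 (limma adjusted p = 0.124) at 6 h. Leaving out GdX-deficient replicate 1 of 90 min, Nr3c1 passed in the fit with time as a covariate (log2 fold change 1.09, limma adjusted p = 0.0255), as did 14.7% of all tested genes. Leaving out wild-type replicate 2 of 6 h, it passed at 6 h (1.40, limma adjusted p = 0.0247), as did 26.7%. The passes thus came in fits that called many genes.

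Several measures moved with the level of Nr3c1. Its listed transcripts have a median length of 6327 bases, against 2782 bases for the tested genes. When the trend on transcript length was removed from each library, an alternative chosen after the data were seen, its log2 fold change was 0.37 with time as a covariate (limma adjusted p = 0.251) and 0.55 at 6 h (limma adjusted p = 0.257). The summed level of the 5 neutrophil markers was 4630 FPKM in GdX-deficient replicate 2 of 90 min and 2518 FPKM in the GdX-deficient 6 h library, and between 674 and 1056 FPKM in the other 5 libraries. None of these markers was at 0 in all libraries. The summed level of the 5 B-cell markers was also highest in these 2 libraries, at 1767 and 1410 FPKM, and lowest in wild type at 6 h, at 423 and 488 FPKM, with 1098 to 1255 FPKM in the other 3. The 2 libraries highest for Nr3c1 were thus the highest for neutrophil and for B-cell markers, and the part of these measures in the result was not tested. In spleen tissue, more cells of a type and more RNA per cell cannot be told apart. Over the 4 groups the order of the means was GdX-deficient at 6 h, GdX-deficient at 90 min, wild type at 90 min and wild type at 6 h, with overlapping libraries only between the first 2 groups.

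**Figure D1:**
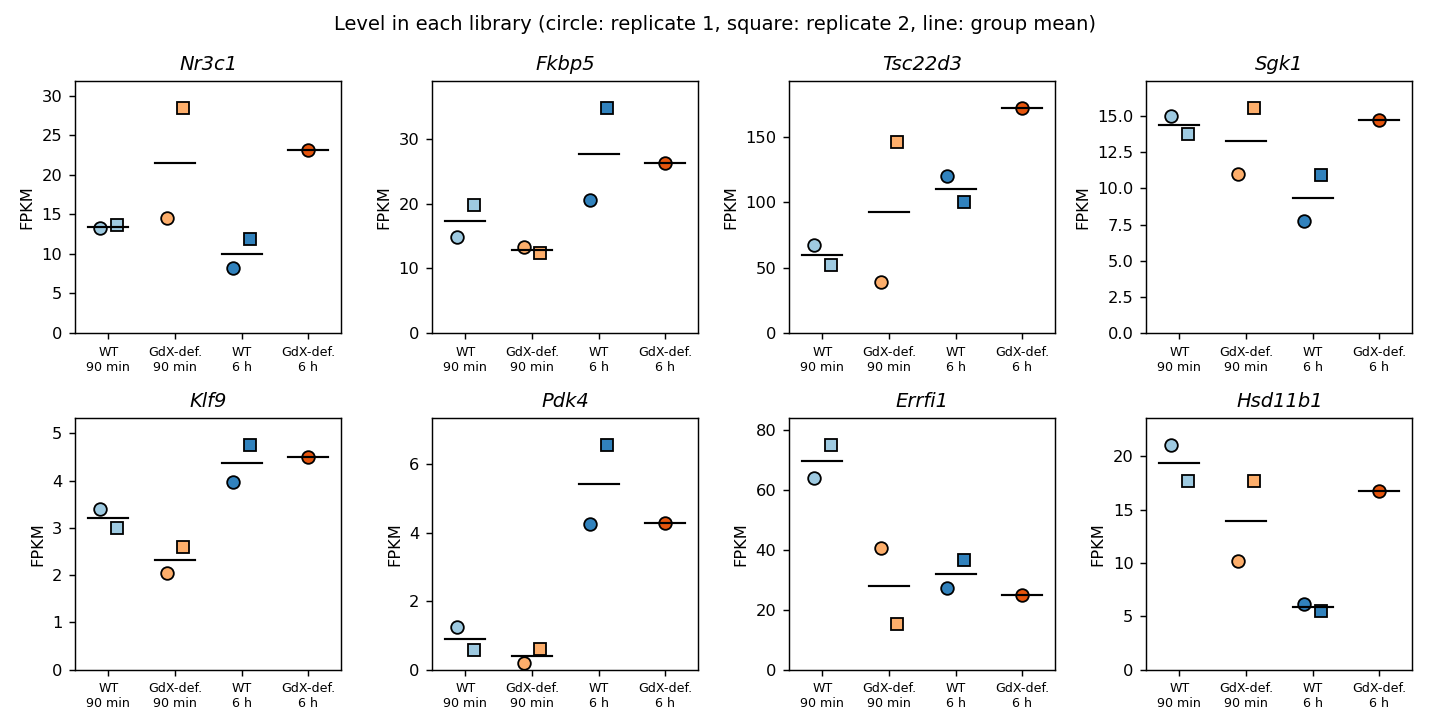
FPKM of the 8 genes (vertical axes, from 0) in the 4 groups, with 1 point per library (circle, replicate 1; square, replicate 2) and a line at the group mean. Pdk4 lies between 0.20 and 1.24 FPKM at 90 min and between 4.25 and 6.56 FPKM at 6 h, and Hsd11b1 is lowest in both wild-type libraries at 6 h.

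Hsd11b1 and Pdk4 were the 2 of 8 members called between the times in wild type, against 10.7% of all tested genes. With Errfi1, 3 of 8 had an unadjusted p under 0.05, against 28.7%. Hsd11b1 (Entrez gene 15483, chromosome 1, 193221640 to 193264045) encodes the enzyme that regenerates active corticosterone from its inactive keto form inside cells. In wild type it stood at 21.07 and 17.67 FPKM at 90 min and at 6.20 and 5.51 FPKM at 6 h. The times did not overlap, and the level fell by 1.57 on the log2 scale (± 0.32, limma adjusted p = 0.0183). The call was lost without replicate 1 of wild type at 90 min (log2 fold change -1.45, limma adjusted p = 0.112), where 3.96% of all tested genes were called, and without a filter on low values (limma adjusted p = 0.0609). In GdX-deficient spleen the level was 10.14 and 17.69 FPKM at 90 min and 16.74 FPKM at 6 h, so the 6 h library lay between those at 90 min (log2 fold change 0.30 ± 0.40, limma adjusted p = 0.846).

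Between genotypes, the 6 h level of Hsd11b1 was above both wild-type libraries in the GdX-deficient library (log2 fold change 1.37 ± 0.40, limma adjusted p = 0.0739). It passed with the replicate number as a block, without replicate 2 of wild type at 6 h (1.3, limma adjusted p = 0.0336) and with the length trend removed (1.36, limma adjusted p = 0.0357). These fits called 29.7%, 26.7% and 10.1% of all tested genes at 6 h. The difference between the 2 genotype effects, tested as an interaction, was 1.87 ± 0.51 (limma adjusted p = 0.215) and did not pass, although its unadjusted p was 0.00494. Across the alternatives that gave a value, the adjusted p of this interaction ranged from 0.0805 to 0.597. The marker sums of several cell types, among them macrophages, T cells, B cells, red cells and endothelium, were likewise lowest in wild type at 6 h, while those of stroma and neutrophils were not. Neutrophil markers (5 of 5 tested) summed to 1056 and 674, then 1048 and 725 FPKM in wild type, and to 980, 4630 and 2518 FPKM in the GdX-deficient libraries. Of the fat tissue markers none was tested. Red pulp macrophage markers (5 of 5 tested) summed in wild type to 611 and 660 FPKM at 90 min, then 280 and 287 FPKM at 6 h, and in GdX-deficient spleen to 623 and 575, then 519 FPKM. T-cell markers (5 of 5 tested) summed to 248 and 235, then 93.5 and 99.2 FPKM in wild type, and to 199.5, 266 and 220 FPKM in the GdX-deficient libraries. B-cell markers (5 of 5 tested) summed to 1255 and 1225, then 423 and 488 FPKM in wild type, and to 1098, 1767 and 1410 FPKM in the GdX-deficient libraries. Red cell markers (5 of 5 tested) summed to 512 and 577, then 171 and 239.5 FPKM in wild type, and to 1179, 962 and 550.2 FPKM in the GdX-deficient libraries. Endothelial markers (4 of 5 tested) summed to 48.9 and 60.6, then 27.4 and 47.1 FPKM in wild type, and to 47.7, 50.6 and 72.3 FPKM in the GdX-deficient libraries. Sums of adrenal cortex and pancreas markers, each with 1 of 5 tested, were also lowest in wild type at 6 h. Markers of stroma (5 of 5 tested), cells that are known to express the enzyme, summed to 47.1 and 27.6, then 18.0 and 23.9 FPKM in wild type, and to 12.7, 12.7 and 31.7 FPKM in the GdX-deficient libraries. Between the times in wild type 5 of 5 red cell, 4 of 5 macrophage, 4 of 5 T-cell, 1 of 5 B-cell, 1 of 4 endothelial and 1 of 5 stroma markers were called lower, against 6.32% of all tested genes. Both wild-type libraries at 6 h were the lowest of the 7 for 5 of 5 macrophage, T-cell and red cell markers, but for 3 of 5 B-cell markers (not Cd22 and Pax5) and 3 of 5 endothelial markers (not Cdh5 and Kdr). No marker of these lists was at 0 in all libraries. The part of these cell types in the level of Hsd11b1 was not tested.

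Pdk4 (Entrez gene 27273, chromosome 6, 5483351 to 5496278) encodes the mitochondrial kinase that shuts off pyruvate dehydrogenase, a metabolic switch induced by fasting and glucocorticoids. In wild type it rose from 1.24 and 0.58 FPKM at 90 min to 4.25 and 6.56 FPKM at 6 h, a log2 fold change of 1.74 ± 0.31 (limma adjusted p = 0.0112). With low genes kept in, the limma adjusted p was 0.0556, and with a minimum mean of 5 FPKM the gene was not tested. In GdX-deficient spleen it stood at 0.20 and 0.60 FPKM at 90 min and 4.28 FPKM at 6 h. Every library at 6 h was above every library at 90 min, whatever the genotype. The GdX-deficient difference of 1.93 ± 0.38 (limma adjusted p = 0.118) did not pass over all genes, where none of the 11378 genes did (0%) and 910 had an unadjusted p under 0.05. With a pseudocount of 0.1 in place of 1 the difference was 3.26 in GdX-deficient and 2.495 in wild-type spleen, and the interaction 0.76. The GdX-deficient difference passed in 4 fits that each left out 1 wild-type library (limma adjusted p from 0.00219 to 0.0323), which called from 0.527% to 2.07% of all tested genes. At the estimated depths, the lowest value stands for about 14 fragments and the highest for about 464, so the 90 min levels of Pdk4 are imprecise. The interaction was 0.19 ± 0.49 (95% interval -0.91 to 1.29, limma adjusted p = 0.963), so a difference between the genotypes in either direction lies within the interval.

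Fkbp5 (Entrez gene 14229, chromosome 17, 28398753 to 28486149) encodes FKBP51, an HSP90 co-chaperone that lowers the receptor's affinity for hormone and is induced by it in a feedback loop. It stood at 14.86 and 19.76 FPKM in wild type and 13.28 and 12.37 FPKM in GdX-deficient spleen at 90 min. At 6 h it stood at 20.59 and 34.78 FPKM in wild type and 26.29 FPKM in the GdX-deficient library. The times did not overlap in either genotype, but the differences of 0.62 in wild type (± 0.32, limma adjusted p = 0.234) and 0.98 in GdX-deficient spleen (± 0.39, limma adjusted p = 0.538) did not pass. The wild-type difference was 0.25 without wild-type replicate 2 of 6 h and 0.98 without replicate 1. Both GdX-deficient libraries were below both of wild type at 90 min (log2 fold change -0.39 ± 0.32, limma adjusted p = 0.659). With each library left out this genotype difference ran from -0.59 to -0.20. At 6 h the GdX-deficient library lay between the wild-type libraries, with a difference of -0.03 and a 95% interval from -0.90 to 0.84.

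Tsc22d3 (Entrez gene 14605, chromosome X, 140539528 to 140600522) encodes GILZ, a leucine zipper protein that binds NF-kB and AP-1 and carries part of the anti-inflammatory action of glucocorticoids. It had the highest level of the 8 genes, with a mean of 99.6 FPKM over the libraries. In wild type it stood at 67.57 and 52.18 FPKM at 90 min and at 120.36 and 99.93 FPKM at 6 h, a log2 fold change of 0.87 ± 0.50 (limma adjusted p = 0.285). In GdX-deficient spleen the 90 min libraries were 3.76-fold apart, at 38.81 and 146.02 FPKM, and the 6 h library reached 172.18 FPKM. Replicate 1 of that group was the lowest of all 7 libraries and replicate 2 the second highest. The genotype difference at 90 min was 0.34 ± 0.50 (limma adjusted p = 0.797) and turned to -0.60 without replicate 2 of the GdX-deficient group. With time as a covariate it was 0.46 (limma adjusted p = 0.427). It was 0.96 when GdX-deficient replicate 1 of 90 min was left out and 0.022 when replicate 2 of that group was. The 2 highest libraries for Tsc22d3 were again those with the highest neutrophil and B-cell marker sums given above, and the part of these cells was not tested.

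Klf9 (Entrez gene 16601, chromosome 19, 23141226 to 23168129), a Krüppel-like transcription factor that responds directly to the receptor, was low in all libraries. It stood at 3.40 and 3.00 FPKM in wild type and 2.04 and 2.59 FPKM in GdX-deficient spleen at 90 min. At 6 h it stood at 3.97 and 4.76 FPKM in wild type and at 4.50 FPKM in the GdX-deficient library. The 6 h libraries were above the 90 min libraries in each genotype, by 0.35 in wild type (± 0.28, limma adjusted p = 0.443) and 0.74 in GdX-deficient spleen (± 0.34, limma adjusted p = 0.641). As for Fkbp5, the GdX-deficient libraries were below wild type at 90 min (-0.34 ± 0.28, limma adjusted p = 0.659). The GdX-deficient 6 h library lay between the wild-type libraries.

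Together, Fkbp5, Tsc22d3, Klf9 and Pdk4 were higher at 6 h than at 90 min without overlap in both genotypes, which is 4 of 8 members against 24.0% of all tested genes. No member was lower at 6 h without overlap in both genotypes, against 9.60% of all tested genes. In wild type alone all 8 members were without overlap between the times, 4 higher at 6 h (30.3% of all tested genes) and 4 lower (27.6%), the latter being Nr3c1, Sgk1, Errfi1 and Hsd11b1. In GdX-deficient spleen 4 were higher (56.8%) and none lower (15.8%), the other 4 having their 6 h library between those at 90 min. Between genotypes, 1 member was higher and 3 were lower without overlap at 90 min (24.1% and 23.4% of all tested genes), and 4 were higher and 1 lower at 6 h (54.9% and 25.3%). Pearson's r over the 7 libraries, on log2(FPKM + 1), was 0.952 between Klf9 and Pdk4, 0.877 between Fkbp5 and Klf9 and 0.869 between Fkbp5 and Pdk4. It was -0.302 between Nr3c1 and Fkbp5 and 0.373 between Nr3c1 and Tsc22d3. These coefficients are descriptions over libraries that share their groups and scaling. Fkbp5, Klf9 and Pdk4 thus ordered the libraries much alike, and Nr3c1 ordered them differently.

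**Figure D2:**
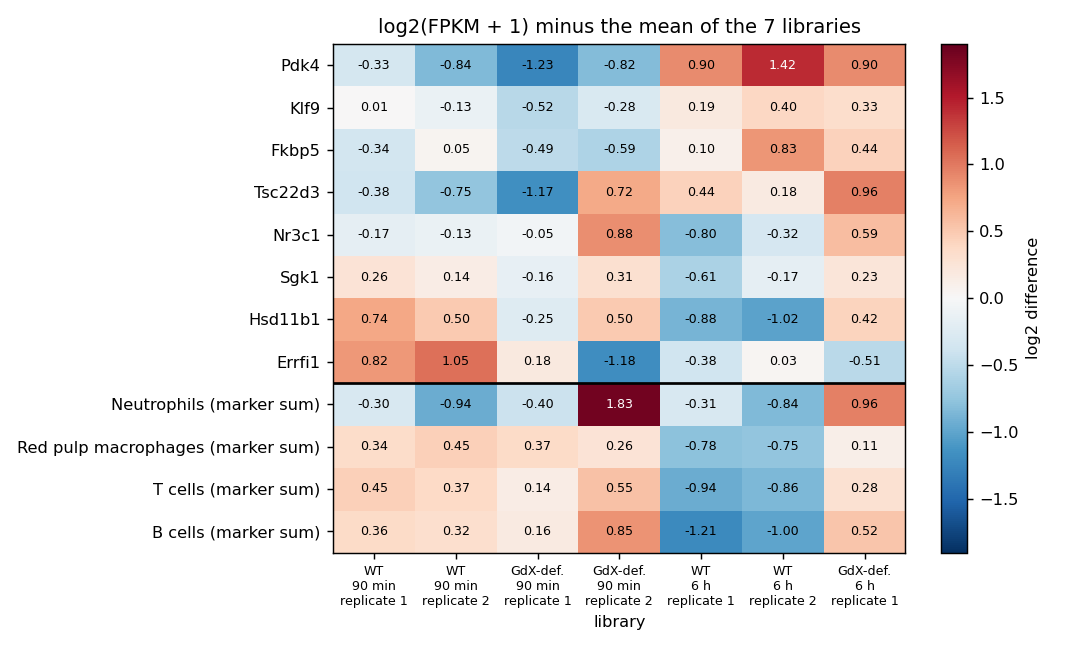
Difference of log2(FPKM + 1) in each library (columns) from the mean of the 7 libraries, for the 8 genes and, below the line, for the summed markers of 4 cell types. Pdk4, Klf9, Fkbp5 and Tsc22d3 are above their means in all 3 libraries at 6 h, and replicate 2 of the GdX-deficient 90 min group stands out in Tsc22d3, Nr3c1, Errfi1 and the neutrophil markers.

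Errfi1 (Entrez gene 74155, chromosome 4, 150853796 to 150868889) encodes MIG6, a cytosolic inhibitor of the epidermal growth factor receptor that is induced by growth factors, stress and glucocorticoids. At 90 min it stood at 64.02 and 75.08 FPKM in wild type and at 40.75 and 15.23 FPKM in GdX-deficient spleen, without overlap. The log2 fold change was -1.43 ± 0.41 (limma adjusted p = 0.547). No member was called between genotypes at 90 min, where 0.0176% of the genes were, and Errfi1 was the only one with an unadjusted p under 0.05 (0.00624), as 7.58% of all genes were. In the fit of the 4 libraries at 90 min alone it passed (limma adjusted p = 0.0224), as it did when wild-type replicate 1 (0.024) or 2 (0.0212) of 6 h was left out. These fits called 1.59%, 1.52% and 1.61% of all tested genes. The size of the difference rested on replicate 2 of the GdX-deficient group: it was -0.75 without that library and -2.12 without replicate 1. Errfi1 was lowest in that library (15.23 FPKM) and next lowest in the GdX-deficient 6 h library (24.81 FPKM). These libraries also had the highest neutrophil and B-cell marker sums given above, and the part of these cells was not tested.

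At 6 h Errfi1 stood at 27.41 and 36.67 FPKM in wild type and 24.81 FPKM in the GdX-deficient library (log2 fold change -0.34 ± 0.50, limma adjusted p = 0.669). It was thus lower in GdX-deficient libraries at both times, as were 13.0% of all tested genes, and Nr3c1 was the only member higher at both, as were 19.0%. With time as a covariate Errfi1 differed by -0.997 ± 0.35 (limma adjusted p = 0.120). Of the 8 members none was called in that fit, as against 0.0439% of all genes. The unadjusted p was under 0.05 for 2 of them, Nr3c1 (0.0156) and Errfi1 (0.0149), where it was for 27.0% of all genes. In wild type Errfi1 was lower at 6 h by 1.10 on the log2 scale (± 0.41, limma adjusted p = 0.113), and it passed when GdX-deficient replicate 1 (limma adjusted p = 0.0476) or 2 (0.0465) of 90 min was left out, when wild-type replicate 2 of 6 h was (0.0254) and in the fit of the 4 wild-type libraries (0.0447). These fits called from 9.54% to 15.6% of all tested genes. In GdX-deficient spleen the 6 h library lay between those at 90 min.

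Sgk1 (Entrez gene 20393), the serum- and glucocorticoid-regulated kinase, which phosphorylates ion channel regulators and FOXO factors, did not pass in any comparison of the 7 libraries. It stood at 15.00 and 13.74 FPKM in wild type and 10.99 and 15.56 FPKM in GdX-deficient spleen at 90 min, and the genotypes overlapped (log2 fold change -0.12, 95% interval -0.81 to 0.56). At 6 h it stood at 7.78 and 10.92 FPKM in wild type and 14.71 FPKM in the GdX-deficient library (0.62 ± 0.37, limma adjusted p = 0.299). The wild-type libraries at 6 h were the lowest of the 7, below both at 90 min (-0.59 ± 0.30, limma adjusted p = 0.238). Of the members, Sgk1 ran closest with Hsd11b1 (r = 0.880, 7 libraries).

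**Figure D3:**
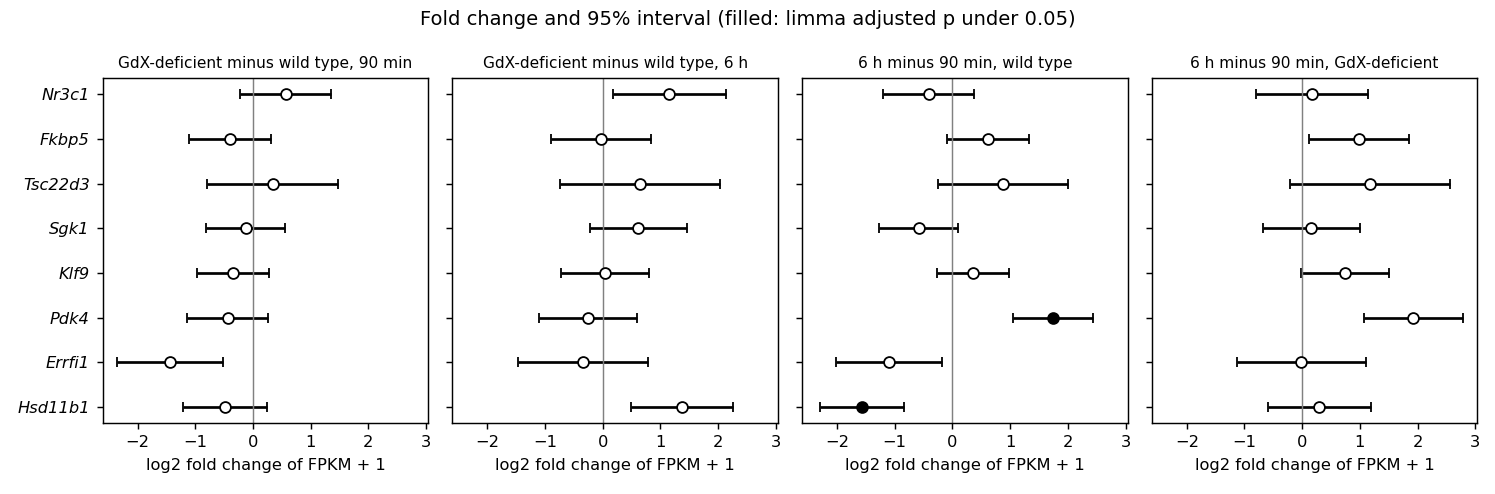
Log2 fold change of FPKM + 1 (horizontal axes) with its 95% interval for the 8 genes in 4 comparisons from the fit of all 7 libraries, filled where the limma adjusted p was under 0.05. The only filled points are Pdk4 (1.74) and Hsd11b1 (-1.57) between the times in wild type.

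At 6 h none of the 8 members was called between genotypes, where 3.96% of all tested genes were, and 2 of them, Nr3c1 and Hsd11b1, had an unadjusted p under 0.05, where 28.4% did. For the interaction none of 8 was called, against 0.0703%, and only Hsd11b1 had an unadjusted p under 0.05, against 9.98%. The median log2 fold change of the members at 6 h was 0.33 and that of all tested genes 0.32. At 90 min the medians were -0.37 and 0.07.

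The genes whose pattern over the 7 libraries was most like that of 3 members were found by Pearson's r among 10940 genes. For Nr3c1 they were Ccdc157 (r = 0.997), Crot (0.996) and Hsdl2 (0.996), and 402 genes (3.67%) had an r of at least 0.95. Crot, a peroxisomal carnitine acyltransferase, was highest in the same libraries as Nr3c1, at 11.2 and 8.93 FPKM, and lowest in wild type at 6 h, at 1.88 and 3.44 FPKM. For Fkbp5 they were Akap1 (0.986), Surf4 (0.984) and Numbl (0.981), with 30 genes (0.274%) at 0.95 or above. For Tsc22d3 they were Mat2b (0.995), Sppl3 (0.992) and Mllt11 (0.992), with 54 genes (0.494%). The pattern of Nr3c1 was thus shared by more genes than that of either target.

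The chaperones that fold the receptor were described as a list of 11 genes, all tested. Between the times in wild type 2 were called, against 10.7% of all tested genes, both higher at 6 h (4.39%): Hsp90ab1, the constitutive HSP90, from 828 and 919 FPKM to 2207 and 1764 FPKM (log2 fold change 1.18 ± 0.29, limma adjusted p = 0.0324), and Ppp5c, a phosphatase bound to HSP90, from 18.95 and 30.13 FPKM to 46.30 and 75.74 FPKM (1.27 ± 0.33, limma adjusted p = 0.0387). The list's median was 0.48, against 0.05 for all tested genes. Neither call was made without a filter on low values or in the fit of the wild-type libraries alone, where 3.54% and 9.59% of all genes were called. Neither was made without wild-type replicate 1, GdX-deficient replicate 1 or GdX-deficient replicate 2 of 90 min. Only 1 chaperone was called after quantile normalization or after leaving out globin genes, where 12% and 6.22% of all genes were. Fewer chaperones were also called without wild-type replicate 2 of 6 h or of 90 min. Without wild-type replicate 1 of 6 h, 2 were called higher and 1 lower. With time as a covariate no chaperone was called between genotypes, and 3 had an unadjusted p under 0.05, all lower in GdX-deficient spleen, with a median of -0.32 against 0.16. In all, 27.0% of the tested genes had such a p in either direction and 9.19% downward. The list's median was -0.13 after quantile normalization and -0.0877 after rescaling without globin genes, with 5 of 11 above 0 in place of 3. It was -0.285 with the length trend removed, with 0 of 11 above 0. Without GdX-deficient replicate 2 or wild-type replicate 1 of 90 min it was -0.352 and -0.369, with 1 of 11 above 0 in each. The 3 genes were Hsp90aa1, Hsp90ab1 and Ppid. Ppid, an HSP90-bound cyclophilin, stood at 42.14 and 37.07 FPKM in GdX-deficient against 54.81 and 53.19 FPKM in wild type at 90 min and at 45.25 against 89.82 and 76.08 FPKM at 6 h (log2 fold change -0.61 ± 0.20, limma adjusted p = 0.116).

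The 12 coregulators, which carry the receptor's signal to chromatin, were not called between the times in wild type or between genotypes with time as a covariate, where 10.7% and 0.0439% of all tested genes were. In the fit with time as a covariate 10 of 12 were above 0, with a median of 0.52 against 0.16 for all genes. The unadjusted p was under 0.05 for 4 of 12 in that direction and for 1 (Hdac2) in the other, as for 17.8% and 9.19% of all tested genes. Ep300, a histone acetyltransferase, had 7.73 and 16.94 FPKM at 90 min and 17.91 FPKM at 6 h in GdX-deficient spleen, against 4.31 to 8.74 FPKM over the wild-type libraries (log2 fold change 1.16 ± 0.32, limma adjusted p = 0.104). Ncoa3 (1.05, limma adjusted p = 0.106) and Ncoa1 (0.74, limma adjusted p = 0.120), steroid receptor coactivators, were also higher in each GdX-deficient library than in wild type of the same time. As for Nr3c1, the 2 highest libraries for Ep300 and Ncoa3 were replicate 2 at 90 min and the 6 h library of the GdX-deficient mice. The list's median was 0.125 with the length trend removed, and 3 of 12 coregulators were called higher when GdX-deficient replicate 1 of 90 min was left out, as were 10.6% of all tested genes.

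Of the 10 genes of ligand supply and metabolism, 9 were in the table and 4 were tested. Star, the protein that moves cholesterol into mitochondria for steroid synthesis, was called in wild type. It fell from 60.14 and 52.97 FPKM at 90 min to 1.67 and 2.69 FPKM at 6 h, a log2 fold change of -4.19 ± 0.40 (limma adjusted p = 0.00105). In GdX-deficient spleen it stood at 26.47 and 10.89 FPKM at 90 min, below both wild-type libraries (-1.67, limma adjusted p = 0.520), and at 7.61 FPKM at 6 h, above both (1.46, limma adjusted p = 0.102). Of the adrenal cortex markers it was the only one tested. Cyp11b1, which defines corticosterone-producing cells, was listed at 0 in 6 libraries and at 0.02 FPKM in the other. H6pd, which supplies the cofactor of the Hsd11b1 enzyme, stood at 6.25 and 7.98 FPKM in wild type and at 4.69 and 4.68 FPKM in GdX-deficient spleen at 90 min. At 6 h it stood at 5.22 and 8.45 FPKM in wild type and 13.65 FPKM in the GdX-deficient library (0.93, limma adjusted p = 0.154). Abcb1a, a steroid export pump, stood between 3.83 and 4.58 FPKM in GdX-deficient and between 1.22 and 3.89 FPKM in wild-type libraries (0.70 with time as a covariate, limma adjusted p = 0.159).

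A further 27 genes known to be induced through the receptor were listed, many of them also induced by LPS itself, and 23 were tested. In wild type 5 were called lower (Anxa1, Cd163, Cebpd, Zfp36 and Btg1) and 1 higher (Il1r2) at 6 h, as were 6.32% and 4.39% of all tested genes. The list's median was -0.54 against 0.05 for all genes. It was -0.163 against 0.171 without wild-type replicate 1 of 6 h, and -0.721 against -0.0965 without replicate 2. Anxa1, the anti-inflammatory phospholipid-binding protein annexin A1, fell from 56.17 and 53.85 FPKM to 11.97 and 16.64 FPKM (log2 fold change -1.89 ± 0.27, limma adjusted p = 0.00530). Cd163, the haemoglobin scavenger receptor of macrophages, fell from 2.32 and 3.16 FPKM to 0.22 and 0.26 FPKM (-1.58 ± 0.24, limma adjusted p = 0.00646). In GdX-deficient spleen it went from 2.35 and 2.49 FPKM at 90 min to 0.26 FPKM at 6 h (-1.44 ± 0.29). The red pulp macrophage markers given above fell in wild type but summed to 623 and 575, then 519 FPKM in GdX-deficient spleen. Their part in the level of Cd163 was not tested. Cebpd, an acute-phase transcription factor, fell from 118.78 and 95.15 FPKM to 41.42 and 25.95 FPKM (-1.67 ± 0.32, limma adjusted p = 0.0141). This direction differs from that of Pdk4, Fkbp5, Klf9 and Tsc22d3 in wild type and is that of Sgk1 and Errfi1. Of the 23 genes, 7 had a fold change above 0. None of the 23 was called between genotypes with time as a covariate, where 3 had an unadjusted p under 0.05 upward and 6 downward (17.8% and 9.19% of all tested genes). When GdX-deficient replicate 1 of 90 min was left out, 3 of 23 were called higher and 5 lower, as were 10.6% and 4.10% of all tested genes. With low genes kept in, 2 of the 27 were called lower and 0 higher between the times in wild type, as were 2.22% and 1.32% of all genes.

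The 14 inflammatory genes that the receptor is known to repress were all tested. In wild type 7 were called lower at 6 h and none higher, as against 6.32% and 4.39% of all tested genes, with a median of -1.83. Among them Ccl4, a monocyte and T-cell chemokine, fell by 3.24 on the log2 scale (± 0.54, limma adjusted p = 0.00873), from 1088 and 878 FPKM to 127.68 and 82.70 FPKM. With time as a covariate all 14 had a negative fold change in GdX-deficient spleen, with a median of -1.20 against 0.16 for all genes. None was called, and 9 had an unadjusted p under 0.05, where 9.19% of all tested genes did downward. The summed level of the 14 was lowest in the GdX-deficient 6 h library (667 FPKM) and replicate 2 of 90 min (1746 FPKM). These 2 libraries had the highest neutrophil and B-cell marker sums, and the part of these cells was not tested. When GdX-deficient replicate 1 of 90 min was left out, 9 of 14 were called lower, as were 4.10% of all tested genes, and without replicate 2 the median was -0.70 and 3 of 14 were above 0. Between the times in wild type, 0 were called without a filter on low values, where 2.22% of all genes were called lower and 1.32% higher. At 6 h alone 2 were called lower, against 1.05% of all tested genes, Il6 (-3.85, limma adjusted p = 0.0174) and Cxcl10 (-1.9, limma adjusted p = 0.0435). With time as a covariate Il6 (-2.68 ± 0.46, limma adjusted p = 0.0915) and Cxcl1, a neutrophil-attracting chemokine (-2.88 ± 0.51, limma adjusted p = 0.0915), had the smallest p-values. At 90 min Il6 had 72.15 and 20.98 FPKM in GdX-deficient spleen against 184.66 and 120.27 FPKM in wild type, and 1.35 against 34.69 and 31.10 FPKM at 6 h. At 90 min Cxcl1 had 181.95 and 27.06 FPKM in GdX-deficient spleen against 512.66 and 359.06 FPKM in wild type, and 4.44 against 66.16 and 42.69 FPKM at 6 h. For both genes every GdX-deficient library was below every wild-type library of the same time.

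**Figure D4:**
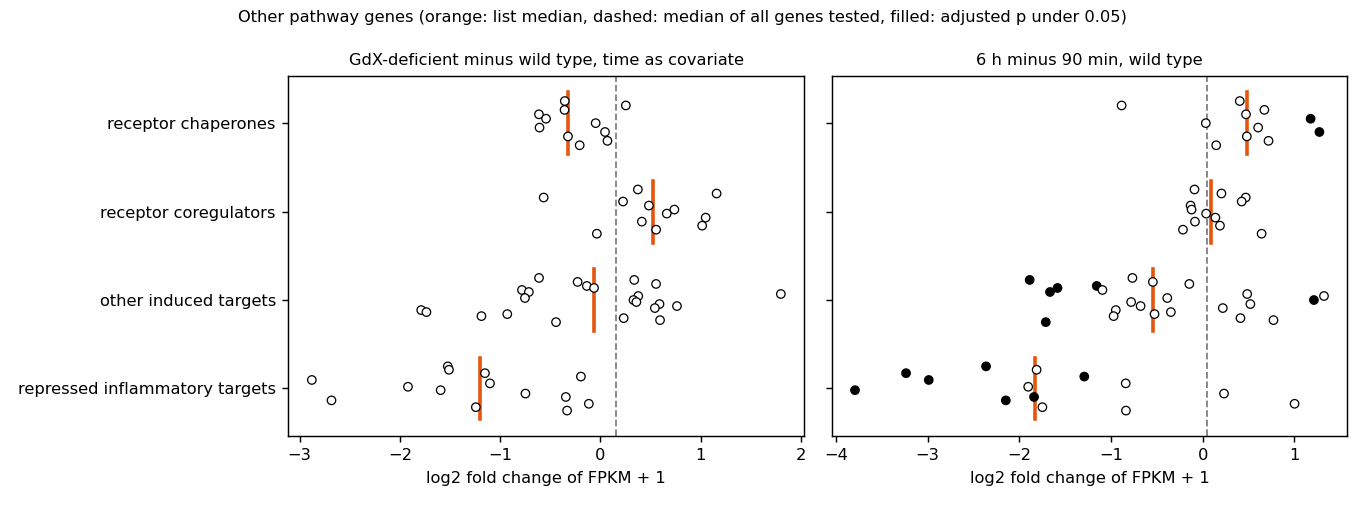
Log2 fold change of FPKM + 1 (horizontal axes) of the tested genes of 4 lists, 1 point per gene, between genotypes with time as a covariate (left) and between times in wild type (right), filled where the limma adjusted p was under 0.05. The orange bars are the list medians and the dashed line is the median of all genes tested (0.16 and 0.05). No point is filled on the left, and the inflammatory genes lie mostly to the left of the line in both panels.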

How the data were processed

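FPKM values of 7 spleen libraries were analysed, 1 column per library, as the authors deposited them with 2 decimals and without pooling, per the file headers. GRCm38.p5, HISAT, HISAT2 2.0.4, Bowtie2 and RSEM are named in the submitters' processing notes, with no role given. The labels' protocols name random-primed libraries sequenced on BGISEQ-500 after oligo-dT selection or rRNA depletion. Libraries were grouped by their titles, and all value columns matched a title. FPKM is relative to all mapped fragments, and 7.73% to 30.9% of the summed FPKM fell on globin genes, so a few genes can shift the rest.

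The 11378 genes with a mean of at least 1 FPKM were fitted on log2(FPKM + 1) with limma 3.58.1 in R 4.3.3 (moderated variances, trended on mean expression, two-sided tests, Benjamini-Hochberg adjustment over all genes). The 4 group means were fitted together, and a second, additive model had genotype and time. Fits were tested on simulated data. Depth was estimated from low FPKM values of genes with 1 transcript of known length (GENCODE M21), of which from 72.3% to 79.9% per library lay within 0.2 of a whole fragment. Alternatives were a pseudocount of 0.1, no filter or a mean of at least 5 FPKM, quantile normalization, rescaling without globin genes, the replicate number as a block, only the libraries compared and leaving out each library. The length trend removal, the crossed block and the palindrome search were chosen after seeing the data. Promoter sequences are from RefSeq (GRCm38.p6), and 7 of the 8 members were matched by symbol and used. The members and gene lists were chosen with earlier results of these data known. All members are named. From each list at most 3 genes are named, those with the smallest p-value in the additive genotype or the wild-type time comparison, and Ubl4a, Gm44504, Cyp11b1 and 4 other markers were added to check labels and cell types, while Hsp90aa1, Hdac2, Zfp36, Btg1, Il1r2 and Cxcl10, which stand behind small counts, were named after their values were seen. Likeness was taken as the 3 highest Pearson's r for Nr3c1, Fkbp5 and Tsc22d3.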

Additional observations from a re-analysis of the deposited data

How the results depend on the processing

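Over the 8 members and 6 comparisons, 612 of 660 alternative values kept their direction and their side of the threshold, 18 newly passed it, 3 no longer passed it and 27 reversed. The cause was not tested for any of them. The number of members called at 90 min was 0 and became 1 (Errfi1) with only the 4 libraries compared. In that fit 1.59% of all tested genes were called, in place of 0.0176%. Between times in wild type it was 2, with 10.7% of all tested genes called. It became 0 without a filter (3.54%) and 3 with only the 4 libraries compared (9.59%). It was 1 with a mean of at least 5 FPKM (11.4%), which leaves Pdk4 and Klf9 untested. Between genotypes at 6 h it was 0 and became 1 (Hsd11b1) with the length trend removed, where 10.1% were called in place of 3.96%. When each library was left out in turn, the number called ranged from 0 to 1 at 90 min, 1 to 3 between times in wild type, 0 to 2 at 6 h, 0 to 1 between times in GdX-deficient spleen, 0 to 0 for the interaction and 0 to 2 with time as a covariate. Without the GdX-deficient 6 h library the 6 h, GdX-deficient time and interaction comparisons could not be fitted, and the fit with time as a covariate then compares genotypes at 90 min alone.

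The replicate numbers were not taken as pairs, since no label ties same-numbered mice and the correlations differed: deviations of same-numbered libraries correlated at -0.12 between genotypes at 90 min, 0.768 between times in wild type and 0.0797 between GdX-deficient 90 min and wild-type 6 h libraries. With the replicate number as a block 2 members were called at 6 h, Nr3c1 (1.40) and Hsd11b1 (1.43), Fkbp5 at 6 h turned to 0.14, and 3383 of all genes were called in place of 450. Between times in wild type the block gave 2345 in place of 1218. With the numbers crossed at 90 min, 0 members and 2 of all genes were called, as without a block.

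Rescaling without globin genes turned Sgk1 at 90 min to 0.071 and Fkbp5 at 6 h to 0.24. Quantile normalization, which moved the median of all genes at 6 h from 0.32 to -0.02, turned Klf9 at 6 h to -0.51, Nr3c1 and Sgk1 between times in GdX-deficient spleen to -0.067 and -0.12, the interaction of Pdk4 to -0.33 and Sgk1 with time as a covariate to -0.017. Removing the length trend turned Klf9 at 6 h to -0.46, Nr3c1 and Sgk1 between times in GdX-deficient spleen to -0.079 and -0.11 and the interaction of Pdk4 to -0.059. Leaving out each library reversed small differences: at 90 min Sgk1 (-0.36 to 0.11) and Tsc22d3 (-0.60 to 1.28), at 6 h Fkbp5 (-0.39 to 0.34), Klf9 (-0.067 to 0.15) and Pdk4 (-0.52 to 0.0082), between times in GdX-deficient spleen Errfi1 (-0.69 to 0.67), Hsd11b1 (-0.075 to 0.67), Nr3c1 (-0.29 to 0.64) and Sgk1 (-0.076 to 0.39), for the interaction Pdk4 (-0.077 to 0.45) and Tsc22d3 (-0.64 to 1.25), and with time as a covariate Hsd11b1 (-0.49 to 0.63) and Sgk1 (-0.12 to 0.36). Of all genes, from 450 to 2402 were called between times in wild type (1218 with all libraries), 0 to 183 between genotypes at 90 min (2), 90 to 3383 at 6 h (450), 0 to 238 for the interaction (8), 0 to 236 between times in GdX-deficient spleen (0) and 2 to 1674 with time as a covariate (5). FPKM carries no counts, so depth is known only as an estimate, and at low levels such as that of Pdk4 at 90 min it limits the precision.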
